A study of Homo sapiens with 8 samples.

Results

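Ovarian carcinoma identity genes are the markers by which a carcinoma is assigned to the ovary or fallopian tube, or by which it is followed and targeted. Here they are 10 named genes, PAX8, MUC16, WT1, MSLN, WFDC2, FOLR1, MECOM, EPCAM, SOX17 and CD24, taken by symbol from the deposited table. Each of the 10 had 1 transcript cluster (the group of probes that reports a gene) among the 17709 clusters with a gene symbol. SK-OV-3, a human ovarian cancer cell line, was implanted into nude mice to form the tumours. Of the 8 tumours, 4 came from cells carrying pIND_BORA, a vector that overexpresses BORA, and 4 from cells carrying pIND_EV, the empty vector (EV). BORA encodes an activator of Aurora A that promotes PLK1 activation before mitosis. All 8 tumours share the line, the host strain and the implantation. Whether each tumour had its own host mouse or cell pool is not stated in the labels. The p-values therefore reflect no more than the variation among these 8 arrays, part of which may be technical.

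High-grade serous carcinoma and other epithelial ovarian tumours keep a programme of the Mullerian duct and of the fallopian tube, in which PAX8 and SOX17 are lineage transcription factors and WT1 marks the serous type. MUC16 carries the CA125 antigen and MSLN, mesothelin, is its binding partner at the cell surface. WFDC2 encodes the secreted serum marker HE4, FOLR1 the folate receptor alpha, and EPCAM and CD24 are surface proteins of epithelial tumour cells. MECOM, which encodes the zinc finger factor EVI1, lies in a chromosome segment that is often gained in ovarian carcinoma.

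Values are the deposited log2 signals, with 1 array per tumour. Array medians over the named clusters lay between 7.035 and 7.068 in BORA tumours and between 6.957 and 7.023 in EV tumours, and the number of arrays limits the precision. A gene was called above background on an array when its signal was over the 95th percentile among that array's 612 negative control rows, which lay between 7.62 and 8.13 in BORA tumours and between 7.82 and 8.24 in EV tumours. The BORA transcript checked the labels. It averaged 12.76 ± 0.23 in BORA tumours and 6.63 ± 0.57 in EV tumours (SD, n = 4 each). It was not above background on any EV array, so it was at least 27-fold higher in BORA tumours, counted from the negative control percentile. That bound was not tested. The measured log2 difference was 6.13 (limma adjusted p = 2.38e-05). EV replicate 1 stood apart. It correlated with the other arrays at 0.943 to 0.954, where those 7 correlated with each other at 0.981 to 0.992, and 13 of 15 measured squamous epithelium markers were above background there. The squamous markers above background numbered 2 or 3 in BORA tumours and 1 or 2 in the other EV tumours. Comparisons are therefore given over all 8 arrays and over the 7 arrays without EV replicate 1.

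Of the 10 genes, 5 were above background in every tumour (MECOM, EPCAM, PAX8, CD24 and WFDC2), 1 in some tumours (MSLN) and 4 in no tumour (MUC16, FOLR1, WT1 and SOX17). Over all named clusters, 32.4% were above background on every array and 52.1% on none. With the stricter 99th percentile 4 of the 5 remained above background in every tumour, all but WFDC2. Negative control rows do not have the binding strength of each gene's own probes, so a signal below them sets no level and does not show that a transcript is absent, and levels of different genes are not set against each other. Tumour RNA was measured in bulk, so fewer cells that carry a transcript and less of it per cell cannot be told apart. Human probes may also bind host transcripts where the sequences allow, which was not tested.

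**Figure D1:**
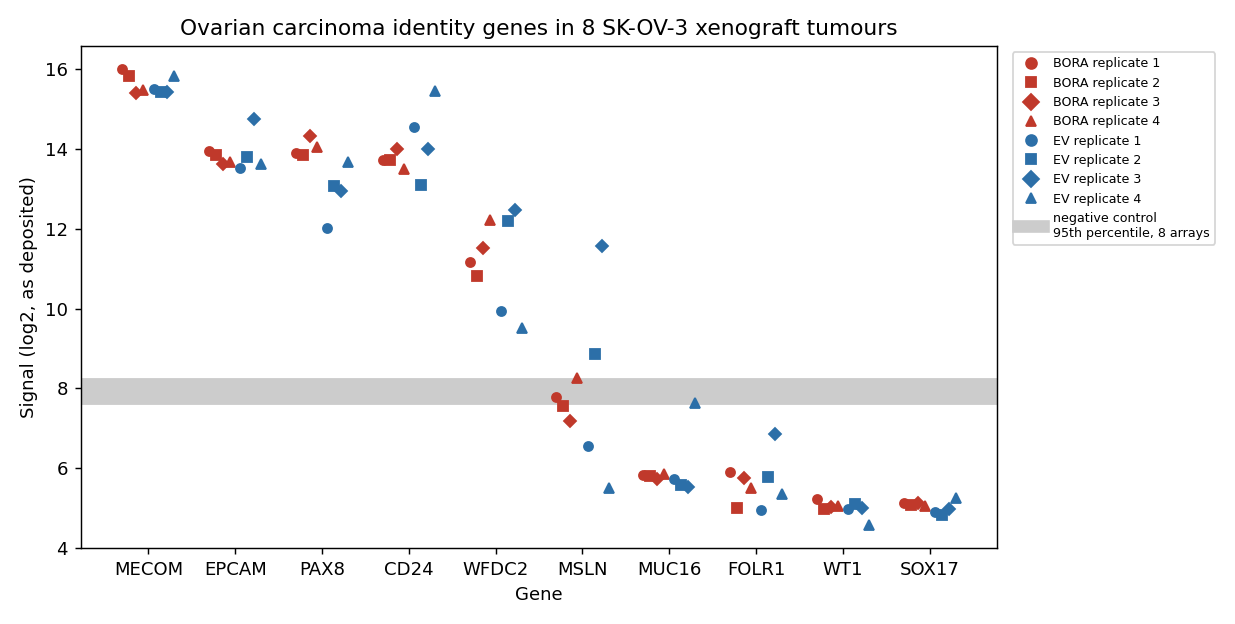
Deposited signal (log2) of the 10 genes in each tumour, with BORA tumours in red on the left of each gene, EV tumours in blue on the right, a symbol per replicate, and the range of the negative control 95th percentile over the 8 arrays as a grey band. MECOM, EPCAM, PAX8, CD24 and WFDC2 lie above the band in all 8 tumours, MSLN is spread across it, and MUC16, FOLR1, WT1 and SOX17 lie under the percentile of their own array in all 8.

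Among the transcription factors, PAX8, a paired-box factor that sets Mullerian and thyroid lineage, differed most clearly between the groups. PAX8 (transcript cluster TC0200013925.hg.1) was at 13.90, 13.86, 14.32 and 14.04 in BORA replicates 1 to 4, against 12.03, 13.07, 12.95 and 13.68 in EV replicates 1 to 4. Every BORA tumour lay above every EV tumour, the closest being BORA replicate 2 and EV replicate 4. The mean was 14.03 ± 0.21 in BORA tumours and 12.93 ± 0.68 in EV tumours (SD, n = 4 each), a log2 difference of 1.10 (SE 0.31, 95% interval 0.41 to 1.78). PAX8 did not pass the test across all clusters (limma adjusted p = 0.199, unadjusted p = 0.00545). Without EV replicate 1, its lowest tumour, the log2 difference was 0.79 (95% interval 0.33 to 1.26, limma adjusted p = 0.121) and the groups still did not overlap. Without EV replicate 4 as well, PAX8 was higher by 1.02 (limma adjusted p = 0.0466), a call that rests on leaving out both arrays. Groups that do not overlap were common. BORA tumours were all above EV tumours at 4.45% of all clusters over 8 arrays and at 6.66% over 7.

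Other measures also moved with the groups. Of the 5741 clusters above background on every array, 3595 were higher in BORA tumours and their median log2 difference was 0.093, against -0.026 over all clusters. After quantile normalization PAX8 was at a log2 difference of 0.99 (limma adjusted p = 0.272). Of 10 endothelium markers, 2 or 3 were above background in BORA tumours and 0 or 1 in EV tumours, and the log2 of their summed signal was 10.39 to 11.16 in BORA tumours and 9.22 to 9.83 in EV tumours. The other 7 of the 10, CLDN5 and VWF among them, were below background in every tumour and lower on average in BORA tumours, so that the list's median log2 difference was -0.212. ERG, an ETS factor of endothelial cells, rose over 8 arrays (log2 difference 2.40, limma adjusted p = 0.0365) and over 7 (2.66, adjusted p = 0.00287). The 8-array call was lost with the replicate block (adjusted p = 0.158), after quantile normalization (0.0602) and when any array but EV replicate 1 was left out (0.081 to 0.126). The part of these differences in the PAX8 result was not tested.

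MECOM varied little. MECOM (TC0300013068.hg.1) was at 16.01, 15.84, 15.41 and 15.49 in BORA replicates 1 to 4, against 15.50, 15.43, 15.43 and 15.83 in EV replicates 1 to 4. BORA replicates 1 and 2 lay above every EV tumour, BORA replicate 3 lay below every EV tumour, and replicate 4 lay among them. The log2 difference was 0.14 (95% interval -0.26 to 0.54, limma adjusted p = 0.739) over 8 arrays and 0.12 (95% interval -0.31 to 0.56, adjusted p = 0.81) over 7. Its range over the 8 tumours was 0.60, and 85.2% of the 5741 clusters above background on every array had a wider one.

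The lineage factors WT1 and SOX17 were below background everywhere. WT1 (TC1100010467.hg.1), a zinc finger factor of the developing kidney and gonad, lay between 4.99 and 5.22 in BORA tumours and between 4.57 and 5.11 in EV tumours. SOX17 (TC0800007662.hg.1), an HMG-box factor that acts with PAX8 in ovarian carcinoma cells, lay between 5.06 and 5.13 in BORA tumours and between 4.83 and 5.26 in EV tumours. These SOX17 values exceeded between 66.5% and 68.6% of the negative control rows in BORA tumours and between 60.9% and 69.0% in EV tumours, so no tumour gave a SOX17 signal apart from them. No fold is given for either gene. Their limma adjusted p-values were 0.645 and 0.746 over 8 arrays and 0.661 and 0.855 over 7.

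RefSeq promoter windows (GRCh38.p14, 250 bases before to 50 after a transcription start) were at hand for 6 of the 10 genes (PAX8, MUC16, WT1, WFDC2, MECOM and CD24), and the most upstream start was used where a gene had several. Of these 6, 3 are shown: PAX8, whose tumour groups did not overlap, WFDC2, the gene with the widest range among those always above background, and MUC16, which was below background throughout. The capitals mark CCAAT (the CCAAT box), GGGCGG (the GC box) and CACCTG (an E box), searched on both strands together with TATAAA (the TATA box), which none of the 6 holds. The windows are chr2:113278872-113279171 (minus strand) for PAX8, chr20:45469503-45469802 (plus strand) for WFDC2 and chr19:9065702-9066001 (minus strand) for MUC16, each read 5′ to 3′ along its gene.
PAX8: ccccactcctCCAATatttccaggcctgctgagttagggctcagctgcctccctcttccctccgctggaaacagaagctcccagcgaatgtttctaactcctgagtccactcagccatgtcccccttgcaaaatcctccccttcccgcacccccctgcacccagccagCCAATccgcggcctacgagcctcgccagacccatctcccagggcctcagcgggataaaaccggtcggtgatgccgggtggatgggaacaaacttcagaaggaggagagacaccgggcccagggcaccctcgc
WFDC2: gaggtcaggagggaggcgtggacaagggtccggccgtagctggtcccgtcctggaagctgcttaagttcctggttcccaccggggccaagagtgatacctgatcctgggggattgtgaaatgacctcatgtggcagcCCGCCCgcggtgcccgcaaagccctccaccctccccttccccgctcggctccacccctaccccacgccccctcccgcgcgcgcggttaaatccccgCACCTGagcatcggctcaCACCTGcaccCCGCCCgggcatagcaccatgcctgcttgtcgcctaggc
MUC16: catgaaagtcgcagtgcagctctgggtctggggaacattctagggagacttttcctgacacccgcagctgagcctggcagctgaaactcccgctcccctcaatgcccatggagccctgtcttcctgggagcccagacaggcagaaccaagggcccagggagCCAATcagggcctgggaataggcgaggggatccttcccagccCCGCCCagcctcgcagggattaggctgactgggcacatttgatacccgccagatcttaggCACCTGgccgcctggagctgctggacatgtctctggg
The PAX8 window holds the CCAAT box 2 times, the WFDC2 window the GC box 2 times and the E box 2 times, and the MUC16 window each marked motif once. On either strand, 34.6% of all 35116 windows hold the CCAAT box, 45.0% the GC box, 20.6% the E box and 11.5% the TATA box. The number of CpG pairs was 13 for PAX8, 22 for WFDC2, 19 for MECOM and 25 for CD24, all above background in every tumour, and 21 for WT1 and 8 for MUC16, below it in every tumour, where the median window held 14. These letters describe the windows and were not tied to the array values.

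Of the secreted marker and the surface antigens, WFDC2 and MSLN varied most between tumours. WFDC2 (TC2000007492.hg.1) was at 11.17, 10.83, 11.52 and 12.22 in BORA replicates 1 to 4, against 9.94, 12.20, 12.48 and 9.51 in EV replicates 1 to 4. The EV tumours fell on both sides of the BORA tumours, with replicates 1 and 4 below all of them and replicate 3 above. The log2 difference of WFDC2 was 0.40 (95% interval -1.08 to 1.88, limma adjusted p = 0.8) over 8 arrays and 0.04 (95% interval -1.28 to 1.35, adjusted p = 0.985) over 7. It turned to -0.11 without EV replicate 4 and, with EV replicate 1 also left out, to -0.91.

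MSLN crossed the background limit from tumour to tumour. MSLN (TC1600006483.hg.1) was at 7.78, 7.56, 7.19 and 8.27 in BORA replicates 1 to 4, against 6.57, 8.86, 11.56 and 5.50 in EV replicates 1 to 4. Only BORA replicate 4 and EV replicates 2 and 3 were above background, BORA replicate 4 by 0.15 and EV replicate 3 by 3.62 on the log2 scale. The log2 difference was -0.42 (95% interval -2.86 to 2.01, limma adjusted p = 0.878) over 8 arrays and -0.94 (95% interval -3.16 to 1.28, adjusted p = 0.703) over 7. Without EV replicate 3 the difference was 0.72 over the remaining 7. Of those arrays only BORA replicate 4 and EV replicate 2 were above background. The turned sign therefore rests on values below background, among them 6.57 and 5.50 in EV replicates 1 and 4, and gives no direction. The differences of -0.42 and -0.94 also rest in part on values below background, those of BORA replicates 1 to 3 and EV replicate 4 among them. They give no direction either. EV replicate 4 was below background, so the range over EV replicates 2 to 4 is given only as a bound, at least 3.74 on the log2 scale when that array is set at its background limit.

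MUC16, the CA125 mucin that binds mesothelin, was below background in all tumours. MUC16 (TC1900009559.hg.1) was at 5.83, 5.81, 5.73 and 5.85 in BORA replicates 1 to 4, against 5.74, 5.57, 5.54 and 7.63 in EV replicates 1 to 4. EV replicate 4 stood above the other 7 tumours and 0.19 below the background limit of its array, and MSLN had its lowest value in that same tumour. The limma adjusted p of MUC16 was 0.753 over 8 arrays and 0.659 over 7.

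FOLR1 (TC1100008340.hg.1), which takes folate into the cell by endocytosis, was also below background in all tumours, at 5.01 to 5.90 in BORA tumours and at 4.96 to 6.86 in EV tumours. Its highest value was in EV replicate 3, as for MSLN and WFDC2. The limma adjusted p was 0.83 over 8 arrays and 0.546 over 7. The related receptor genes FOLR2 and FOLR3 were below background in all 8 tumours too, at 3.36 to 3.78 and 6.37 to 6.93 in BORA tumours and at 3.80 to 4.15 and 6.31 to 6.69 in EV tumours.

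The surface antigens EPCAM and CD24 were above background in every tumour. EPCAM (TC0200007506.hg.1), a homophilic adhesion protein of epithelia, was at 13.96, 13.86, 13.63 and 13.68 in BORA replicates 1 to 4, against 13.52, 13.80, 14.76 and 13.62 in EV replicates 1 to 4. EV replicate 3 stood above the other 7 tumours, which lay close together. The log2 difference of EPCAM was -0.14 (95% interval -0.73 to 0.45, limma adjusted p = 0.825) over 8 arrays and -0.28 (95% interval -0.84 to 0.28, adjusted p = 0.649) over 7. It turned to 0.14 without EV replicate 3.

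CD24 (TC0600012747.hg.1), a small glycoprotein held by a lipid anchor and a ligand of the leukocyte receptor SIGLEC10, was at 13.72, 13.72, 13.99 and 13.49 in BORA replicates 1 to 4. In EV replicates 1 to 4 it was at 14.55, 13.11, 13.99 and 15.46. The EV tumours again spanned the BORA tumours, with replicate 2 below all of them and replicates 1 and 4 above. The log2 difference was -0.55 (95% interval -1.48 to 0.39, limma adjusted p = 0.563) over 8 arrays and -0.46 (95% interval -1.38 to 0.47, adjusted p = 0.649) over 7, where it turned to 0.18 once EV replicate 4 was left out too. RefSeq lists 5 CD24 pseudogenes, and whether the probes separate them from CD24 was not tested.

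**Figure D2:**
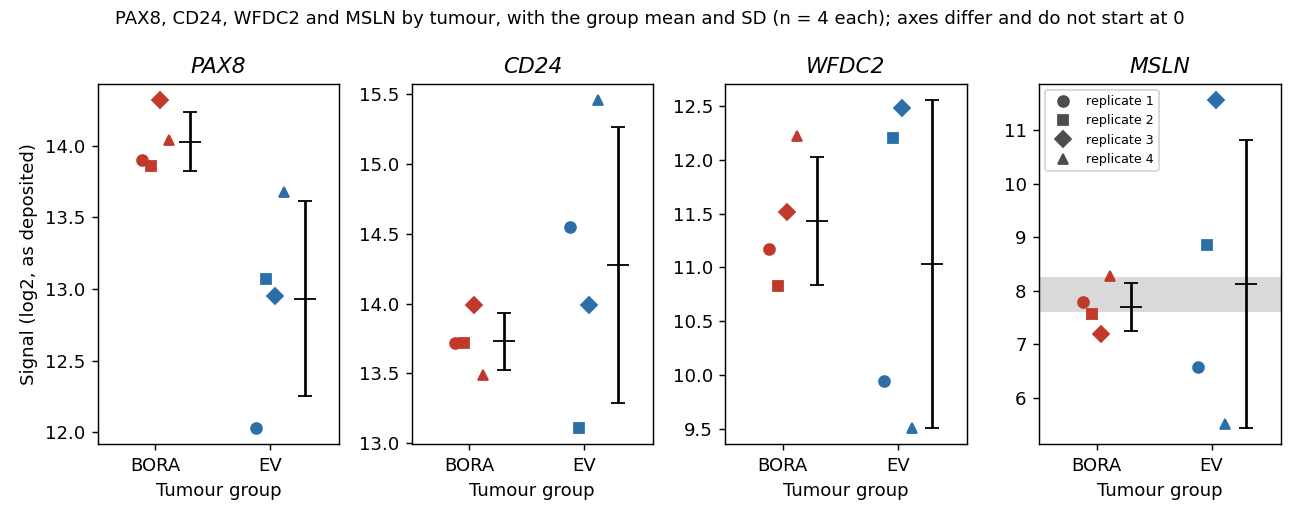
Deposited signal (log2) of PAX8, CD24, WFDC2 and MSLN in each tumour, BORA left and EV right, with a symbol per replicate and the group mean and SD beside it (n = 4 each); the axes differ between panels and the grey band is the negative control percentile. PAX8 separates the groups, while the EV tumours of the other 3 genes lie on both sides of the BORA tumours.

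Taken as a list, the 10 genes had no call between BORA and EV tumours. Over 8 arrays none of the 10 (0 up, 0 down) had a limma adjusted p below 0.05, where 0.102% of all clusters rose and 0% fell. At an unadjusted p under 0.05 1 of the 10 (PAX8) differed, against 14.5% of all clusters. Over the 7 arrays 0 of 10 again passed in either direction, where 0.435% of all clusters rose and 0.0791% fell, 0.514% in all, and 1 of 10 (PAX8) differed at an unadjusted p under 0.05, against 15.3% of all. The groups did not overlap for 1 of 10 genes in both fits, where this held for 9.36% of all clusters over 8 arrays and 14.3% over 7. The list's median log2 difference was -0.017 over 8 arrays and -0.121 over 7, against -0.026 and -0.029 over all clusters. The intervals of WFDC2 and MSLN leave room for more than a doubling either way. That of CD24 runs from -1.48 to 0.39 over 8 arrays and from -1.38 to 0.47 over 7. The lack of calls therefore does not show that the groups are alike.

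**Figure D3:**
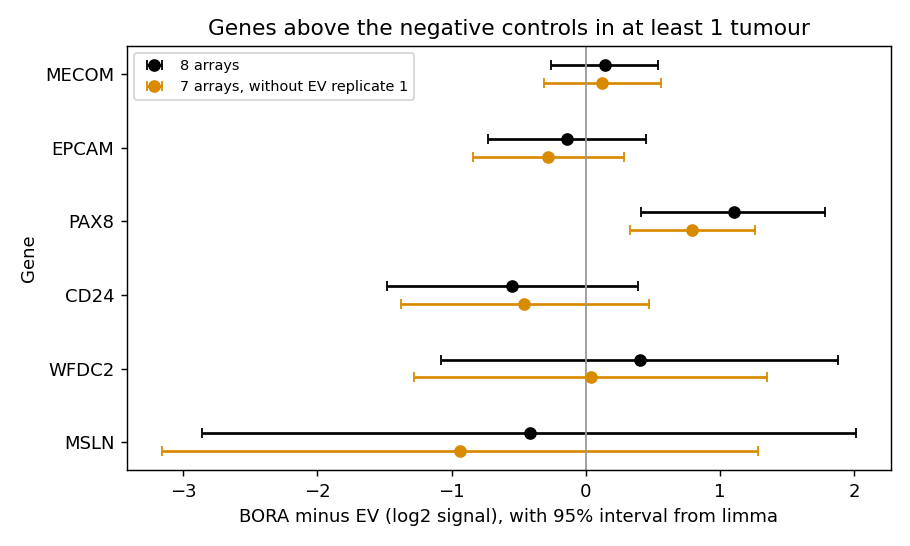
BORA minus EV difference (log2 signal) with the 95% interval from limma for the 6 genes above background in at least 1 tumour, over 8 arrays (black) and over the 7 arrays without EV replicate 1 (orange). The intervals of PAX8 (0.41 to 1.78 and 0.33 to 1.26) lie above 0, without passing after adjustment over all clusters, and those of the other 5 genes include 0. The MSLN differences rest in part on values below background.

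Most members varied more among EV tumours than among BORA tumours. The SD was larger in EV than in BORA tumours for 9 of the 10 genes, the exception being MECOM, against 61.6% of all clusters. Over EV replicates 2 to 4 this again held for 9 of 10, against 48.3% of all clusters. Of these 9, MUC16, FOLR1, WT1 and SOX17 were below background throughout. Among the 5 members above background in every tumour the SD was larger in EV tumours for 4, against 64.6% of clusters above background on every array, and again for 4 over EV replicates 2 to 4, against 45.3%. A wider EV spread was not particular to the members. In the related lists described below it held for 91.7% of Mullerian, 85.7% of serous, 75% of clear cell and 65.2% of partner genes. Over EV replicates 2 to 4 it held for 83.3%, 66.7%, 58.3% and 43.5% of them. Of the 10 genes, 4 had their highest value in EV replicate 3 (MSLN, WFDC2, FOLR1 and EPCAM), a tumour that held the highest value for 13.1% of all clusters. A further 3 were highest in EV replicate 4 (MUC16, SOX17 and CD24), against 15.0% of all clusters. Replicate 4 also held the lowest values of MSLN, WFDC2 and WT1, and of 2197 of all 17709 clusters. MSLN and WT1 were below background in that tumour. EV replicate 1 held the lowest values of 3 genes (PAX8, FOLR1 and EPCAM), and of 22.2% of all clusters. The members' shares describe 10 genes chosen by name and were given no test.

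**Figure D4:**
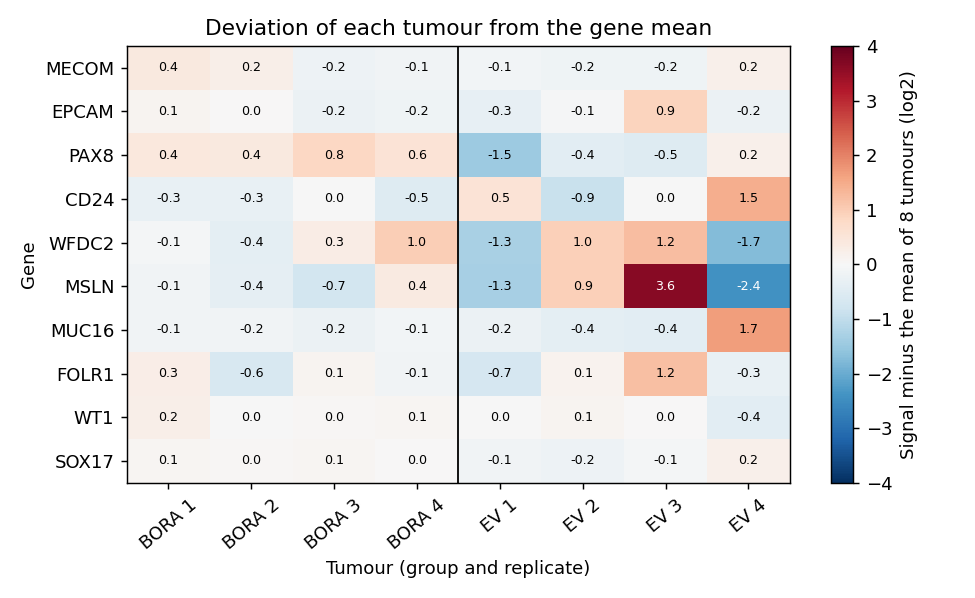
Deviation of each tumour from the mean of the 8 tumours (log2 signal) for the 10 genes, with BORA tumours left of the line and EV tumours right of it. EV replicates 3 and 4 deviate in opposite directions for MSLN (11.56 and 5.50) and WFDC2 (12.48 and 9.51). For PAX8 every BORA tumour is above the mean, and so is EV replicate 4.

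**Figure D5:**
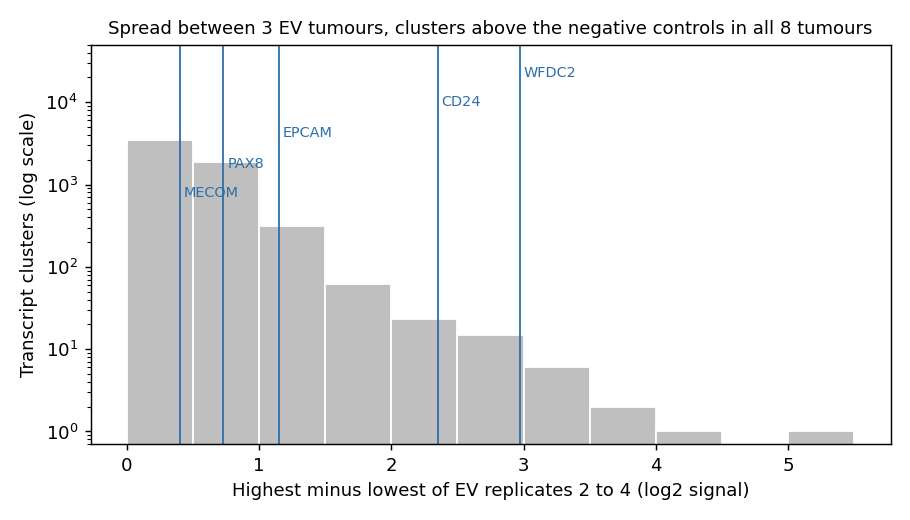
Number of clusters above background in all 8 tumours (log scale; 5741 clusters) by the difference between the highest and the lowest of EV replicates 2 to 4 (log2 signal), with the 5 members among them marked by blue lines. WFDC2 at 2.97 (10 clusters wider) and CD24 at 2.35 (29 wider) lie in the tail, EPCAM at 1.15 and PAX8 at 0.73 nearer the bulk, and MECOM at 0.40 within it.

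The clusters whose pattern came closest to a member's were ranked by the root mean square (RMS) difference of mean-centred log2 signals over the 7 arrays without EV replicate 1, among those above background on every array. PAX8, with an SD of 0.50 over these arrays, was closest to C19orf53, VGLL4 and ACVR1B (RMS differences 0.14, 0.15 and 0.16). WFDC2, with an SD of 1.03, was closest to CXCL16, SORCS2 and SPINT1 (0.47 each). EPCAM, with an SD of 0.40, was closest to STPG1, KCNN4 and KRT8 (0.09, 0.10 and 0.13), CD24, with an SD of 0.74, to TPD52L1, IFT172 and VAV3 (0.14, 0.32 and 0.34), and MECOM, with an SD of 0.25, to CRNDE, HJURP and ANO10 (0.08 each). Each likeness is only a ranking over 7 arrays.

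Other genes of ovarian carcinoma were described by fixed lists. Of 18 Mullerian factors and hormone receptors 12 were measured, of which 2 were above background in every tumour and 8 in none, and 0 rose or fell in limma over 8 or 7 arrays (0 at an unadjusted p under 0.05). ESR1, the oestrogen receptor alpha gene, had a log2 difference of 0.26 (limma adjusted p = 0.496) over 8 arrays and 0.32 (adjusted p = 0.431) over 7. HOXD10, a homeobox factor, was below background in all 8 tumours, at 3.69 to 3.78 in BORA tumours and 3.59 to 6.99 in EV tumours. PAX2, the closest relative of PAX8 among them, was below background at 3.73 to 4.24 in BORA tumours and 3.80 to 4.34 in EV tumours. The SOX17 relatives SOX18 and SOX7 and the MECOM relative PRDM16 were below background in all 8 tumours as well, the highest of their values being 7.35, that of SOX7 in EV replicate 1.

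Of 25 other secreted and surface genes known from serous carcinoma 21 were measured, 5 of them above background in every tumour, and 0 passed in limma over 8 or 7 arrays (3 at an unadjusted p under 0.05 over 8, 5 over 7). MUC1, a membrane mucin, averaged 12.47 ± 0.58 in BORA tumours and 10.88 ± 1.27 in EV tumours (SD, n = 4 each), with overlap (log2 difference 1.59, limma adjusted p = 0.275, and 1.32 over 7 arrays, adjusted p = 0.27). CLDN4, a tight junction claudin, averaged 8.45 ± 0.50 in BORA tumours and 9.38 ± 0.65 in EV tumours (SD, n = 4 each; log2 difference -0.94, limma adjusted p = 0.282). Over 7 arrays the CLDN4 difference was -1.24 (limma adjusted p = 0.0705, unadjusted p = 0.000601) and the groups did not overlap, BORA tumours being lower. SLPI, a protease inhibitor with the same type of domain as WFDC2, was at 16.34 to 16.60 in BORA tumours and at 15.30 to 17.05 in EV tumours, highest in EV replicate 3 and lowest in EV replicate 4, as WFDC2 was.

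Of 14 clear cell and endometrioid type genes 12 were measured and 0 passed in limma over 8 or 7 arrays (2 and 1 at an unadjusted p under 0.05). VIM, the intermediate filament vimentin, had a log2 difference of 0.77 (limma adjusted p = 0.315) over 8 arrays and 0.48 (adjusted p = 0.352) over 7, and NAPSA, an aspartic protease, was below background throughout. Of 27 genes whose products act with a member 23 were measured and 0 passed in limma over 8 or 7 arrays (1 in each at an unadjusted p under 0.05). CD44, a hyaluronan receptor found in complexes with EPCAM, was at 13.49 to 13.93 in BORA tumours and at 13.93 to 15.11 in EV tumours, without overlap before rounding (log2 difference -0.58, limma adjusted p = 0.34). Without EV replicate 1, its highest tumour, the CD44 difference was -0.31 (limma adjusted p = 0.407). CTBP2, a corepressor of the family that binds EVI1, had a log2 difference of 0.50 (limma adjusted p = 0.38) over 8 arrays and 0.27 (adjusted p = 0.519) over 7. The median log2 difference over 8 arrays was -0.036 for the Mullerian list, -0.256 for the serous list, 0.145 for the clear cell list and 0.046 for the partners, against -0.026 over all clusters.

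Markers of other cell types were read on the same arrays. Of 8 measured intestinal and mucinous markers, MUC2 and GPA33 among them, 0 were above background in any tumour. Of 12 mesothelium markers, 10 were below background throughout, DES and HP among them. LRRN4 was above background in every tumour but EV replicate 1, and KLK11 in EV replicate 1 alone. Mesothelium also expresses MSLN. The log2 of the list's summed signal was 9.68 to 10.03 in BORA tumours and 9.79 to 10.12 in EV tumours, and it was 9.79 in EV replicate 3, where MSLN was highest. This sum includes the 10 markers below background. The part of mesothelium in the MSLN values was not tested. Squamous markers summed to 12.92 to 15.05 in BORA tumours, to 18.72 in EV replicate 1 and to 13.16 to 14.04 in the other EV tumours, S100A8 and DSG3 being at 15.03 and 15.01 in EV replicate 1. The part of the squamous signal in the low PAX8 and high CD24 values of EV replicate 1 was not tested. Of 11 stroma markers 4 to 6 were above background per tumour, POSTN and THY1 not among them. Of 11 leukocyte markers 1 to 4 were, and of these PTPRC, the CD45 gene, fell by 2.07 over the 7 arrays (limma adjusted p = 0.0194) and not over 8 (log2 difference -0.68, adjusted p = 0.803). The 7-array call of PTPRC was lost without BORA replicate 2 (limma adjusted p = 0.0544) or BORA replicate 4 (0.0684). CD68, the 1 leukocyte marker above background in every tumour, was higher in BORA tumours by 0.38 over 7 arrays (limma adjusted p = 0.563). Of the 11 leukocyte markers 9 were lower and 2 higher over 7 arrays, but 7 were below background throughout, so PTPRC does not stand for the list.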

How the data were processed

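RNA of 8 tumours was measured on Affymetrix expression arrays, 1 per tumour. The submitters' processing notes name Affymetrix Expression Console as the software with which the authors made the deposited values, which were read as log2 signals from their range. For the log base, background correction, probe summary and normalization the sources used here give nothing, and the array named in the series text differs from the supplied annotation. Folds hold only on the log2 reading. Of 24351 rows, 17709 clusters carried 1 gene symbol, 3739 were unnamed here and 612 were negative controls.

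Groups and replicate numbers came from the labels. Each named cluster was tested with limma (lmFit and eBayes on group alone, as BORA minus EV), adjusting p over all named clusters by Benjamini-Hochberg and a threshold of 0.05, over 8 arrays and over the 7 without EV replicate 1. No filter was applied. The brightest cluster of each symbol was used. The steps were tested on simulated data. The members and lists were chosen with earlier results of these data known. Named genes were all members, their paralogues, and of each list those that passed or the 2 with the smallest p. Alternatives were the replicate block, quantile normalization, median centring, trend with robust fitting, array weights, 2 filters, all rows, cluster means, other thresholds and leaving out each array. Labels give no batch. R 4.3.3 and limma 3.58.1 were used.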

Additional observations from a re-analysis of the deposited data

Results flagged for a closer look

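MUC16 in EV replicate 4 was at 7.63, where the nearest other EV tumour was at 5.74, both below background. The gap was 0.904 of the group's range, above Dixon's 95% critical value for 4 samples. PTPRC in EV replicate 1 was at 6.91, below background, where the nearest other EV tumour was at 12.19 (0.875 of the range). FOLR2 in BORA replicate 3 was at 3.36, where the nearest other BORA tumour was at 3.73 (0.883 of the range), both below background. Of 72 groups of 4 values examined in this way, 20 of them of the members, 3 were picked out, and chance picks about 1 group in 20.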

How the results depend on the processing

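The members' calls changed in 1 case. Over 8 arrays 0 of 10 passed under every alternative listed. Over the 7 arrays without EV replicate 1, 0 of 10 passed except when EV replicate 4 was also left out, where 1 passed (PAX8, 1.02); over the leave-one-out fits the count was 0 to 1. PAX8 stayed above 0 in all alternatives, at 0.79 to 1.35 over 8 arrays (limma adjusted p = 0.0971 to 0.4) and at 0.65 to 1.02 over 7 (0.0466 to 0.273). The other members with a turned sign, none of which passed, were WFDC2 (0.40 over 8 arrays, -0.13 with array weights, -0.11 without EV replicate 4; 0.04 over 7, -0.07 after quantile normalization, -0.01 after centring, -0.28 with array weights, -0.23 without BORA replicate 4, -0.91 without EV replicate 4), MSLN (0.72 over 8 and 0.52 over 7, both without EV replicate 3), EPCAM (0.14 and 0.07, likewise), FOLR1 (0.18 over 8 without EV replicate 3), MUC16 (0.19 and 0.25 without EV replicate 4), CD24 (0.18 over 7 without EV replicate 4) and SOX17 (-0.01 over 7 without EV replicate 2). Of these genes, FOLR1, MUC16 and SOX17 were below background in every tumour and MSLN in some, so their differences, here and in the ranges below, give no direction. The causes of the turned signs were not tested. Leave-one-out ranges were -0.11 to 0.88 for WFDC2, -1.30 to 0.72 for MSLN, -0.28 to 0.14 for EPCAM, -0.46 to 0.18 for FOLR1 and -0.51 to 0.19 for MUC16 over 8 arrays. Over 7 they were -0.91 to 0.58 for WFDC2, -2.51 to 0.52 for MSLN, -0.50 to 0.07 for EPCAM, -0.80 to 0.25 for MUC16, -1.0 to 0.18 for CD24 and -0.01 to 0.20 for SOX17. The count of all clusters called was 18 over 8 arrays, 11 after quantile normalization, 48 with array weights, 9 among clusters above the median, 49 and 1 at thresholds of 0.1 and 0.01, and 1 to 91 when each array was left out: 4, 2, 4 and 1 without BORA replicates 1 to 4 and 91, 3, 2 and 10 without EV replicates 1 to 4. Over 7 arrays it was 91, 50 and 59 with the filters on dim clusters, 277 and 11 at the other thresholds, and 25 to 152 on leaving out a further array (25, 34 and 40 without BORA replicates 2, 3 and 4, 59 and 152 without EV replicates 3 and 4). With the replicate block 1 cluster was called over 8 arrays, and 0 members. The labels do not say that numbers pair tumours, and deviations of same-numbered tumours correlated at -0.113, 0.039, 0.071 and -0.019, with 1 of 8 tumours closest to its own number. The 5 members above background in every tumour were 4 with the 99th percentile, 5 after quantile normalization and 5 with the 90th percentile, the last chosen after seeing the data. Over 8 arrays the related lists had 0 calls in all alternatives. Over 7, where these alternatives were added after seeing the data, they had 0 except at the threshold of 0.1, where 1 gene was called (CLDN4, of the serous list). The median of all clusters lay at -0.016 after quantile normalization and -0.080 after centring.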
